A study of Mus musculus with 12 samples.

Results

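Notch receptor, ligand, target and Fringe transcripts were measured by RNA-seq in B16F10 cells, a mouse melanoma line that originated from a tumor of C57BL/6 mice. The genes were chosen by symbol and were the receptors Notch1, Notch2 and Notch3, the ligands Jag1 and Jag2, the target genes Hes1 and Hey1, and the Fringe genes Lfng, Mfng and Rfng. These are 10 of the 24421 genes in the count tables. There were 4 groups with 3 libraries each, 12 libraries in total. Control cells received dimethyl sulfoxide (DMSO). For DAC single treatment, cells received 5-aza-2′-deoxycytidine (DAC), a nucleoside analog that traps DNA methyltransferases, at 25 nM for 72 h. For SFN single treatment, cells were left untreated at first and then received sulforaphane (SFN), an isothiocyanate derived from cruciferous vegetables, for the last 48 h. The combination treatment (DAC+SFN) joined 25 nM DAC for 72 h with SFN at 5 µM for the last 48 h. The sample labels give the SFN dose of the single treatment as 5 nM, whereas the study's methods give the dose of the combination for both, so comparisons between SFN and DAC+SFN rest on the methods being right. The methods describe SFN as dissolved in water and DAC in DMSO, so the DMSO control was not a matched vehicle for SFN alone. All groups were harvested together, and the repeats are described as independent biological repeats, all of this cell line. Bulk RNA was measured, in which fewer cells that express a gene and less RNA per cell cannot be told apart.

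Notch receptors sit at the cell surface and are bound by ligands on neighboring cells. Binding leads to cleavage of the receptor, first by an ADAM metalloprotease and then by γ-secretase, and the released intracellular domain enters the nucleus, joins the DNA-binding protein RBPJ and turns on target genes such as those of the HES and HEY repressor families. Fringe proteins are glycosyltransferases that extend the O-fucose sugars on the receptors and thereby alter which ligands activate them. In the melanocyte lineage, Notch signaling through Hes1 is known to maintain melanoblasts and melanocyte stem cells.

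Libraries held between 15880957 and 27291436 counts. Of the 10 genes, 8 reached 1 CPM (reads per 1e+06 counts of the library, scaled by TMM) in 3 or more libraries and were tested. Hey1 and Mfng did not pass. The 7 melanocytic markers (Dct, Tyr, Tyrp1, Pmel, Mlana, Mitf and Sox10) were present in all libraries and summed to between 21400 and 30200 CPM. Endothelial markers (Pecam1, Cdh5, Tek) summed to at most 0.623 CPM, with Cdh5 at 0 counts, and keratinocyte markers (Krt5, Krt14) to at most 0.091 CPM. Of the 3 leukocyte markers, Ptprc had at most 2 counts and Cd3e at most 1 count in any library, and the sum was nearly all Cd68, a lysosomal membrane glycoprotein. The fibroblast list (Col1a1, Col1a2, Dcn, Pdgfra) summed to between 250 and 366 CPM in replicate 3, between 63.9 and 94.0 CPM in replicate 1 and between 19.6 and 28.5 CPM in replicate 2. It was mostly Col1a1, and Dcn had at most 1 count.

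RefSeq promoter windows, from 250 bases before to 50 bases after the start site (GRCm38.p6), were found for 7 of the 10 genes, all but Hes1, Hey1 and Mfng. Each was searched on both strands for the core letters of the RBPJ motif, TGGGAA (reverse complement TTCCCA), through which the Notch intracellular domain reaches DNA. Lfng, itself known as a Notch target in the embryo, was the gene among the 7 with a match, and it had 2. The match on the gene strand lay 108 to 103 bases before the start site and extended to CGTGGGAA from base 110. The match on the opposite strand lay 135 to 130 bases before the start site. Of 32851 promoter windows, 25.6% held TGGGAA, 6.38% held GTGGGAA and 0.734% held CGTGGGAA on either strand, and these 3 motifs overlap each other by construction. The stretch before the first annotated exon is shown for Lfng (chr5:140607091-140607319, plus strand) with the matches in capitals.
Lfng: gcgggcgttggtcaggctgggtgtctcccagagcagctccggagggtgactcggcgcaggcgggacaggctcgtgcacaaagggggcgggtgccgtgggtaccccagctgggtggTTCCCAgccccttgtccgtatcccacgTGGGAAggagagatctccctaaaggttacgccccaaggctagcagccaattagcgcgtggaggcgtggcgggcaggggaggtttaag
The windows of Notch1, Notch3 and Jag1 are shown because these genes passed the test with the combination treatment and because CpG dinucleotides are the sites where DNA methylation, which DAC counteracts, is placed. CpG sites are in capitals. The stretches shown are those outside annotated exons, at chr2:26503825-26504072 for Notch1, chr17:32166897-32167140 for Notch3 and chr2:137116645-137116770 for Jag1, all on the minus strand. The Notch1 stretch lies inside an intron of a longer annotated transcript.
Notch1: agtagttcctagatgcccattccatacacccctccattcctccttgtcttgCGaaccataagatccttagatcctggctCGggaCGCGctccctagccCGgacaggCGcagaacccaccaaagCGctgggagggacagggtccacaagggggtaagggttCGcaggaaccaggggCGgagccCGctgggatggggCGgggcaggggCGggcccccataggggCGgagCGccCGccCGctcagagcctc
Notch3: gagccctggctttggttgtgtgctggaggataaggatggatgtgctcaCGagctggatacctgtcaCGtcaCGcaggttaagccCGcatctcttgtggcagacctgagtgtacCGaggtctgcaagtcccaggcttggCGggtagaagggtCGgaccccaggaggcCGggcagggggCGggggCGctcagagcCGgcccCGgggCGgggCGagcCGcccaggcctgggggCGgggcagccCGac
Jag1: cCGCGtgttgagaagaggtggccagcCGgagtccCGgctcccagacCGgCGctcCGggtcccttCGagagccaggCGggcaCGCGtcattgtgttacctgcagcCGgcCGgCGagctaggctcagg
The whole windows of 300 bases held 23 CpG in Notch1, 25 in Notch3, 22 in Jag1 and 22 in Lfng, compared to a median of 7 over all promoter windows. Of all promoter windows, 78.5% held fewer CpG than Notch1, 81.6% than Notch3 and 76.9% than Jag1 or Lfng. Genes that did not pass the test in DAC+SFN compared to control held 41 (Notch2), 44 (Rfng) and 63 (Jag2) CpG. Methylation of these windows was not measured here. With DAC alone, 0 of the 8 genes tested passed, and 0 passed in DAC+SFN compared to SFN. Notch1, Jag1 and Lfng also passed with SFN alone. Whether the CpG number goes with the changes was not tested.

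In control cells, levels were compared between genes per kilobase of exon. Rfng was highest, with 11.3 ± 0.373 CPM per kilobase (mean ± SD, n = 3, as below), followed by Notch2 with 4.96 ± 0.594, Jag1 with 2.59 ± 0.335 and Hes1 with 1.73 ± 0.609 CPM per kilobase. Notch3 had 0.947 ± 0.287, Jag2 0.715 ± 0.304 and Notch1 0.597 ± 0.0939 CPM per kilobase. Lfng had 0.16 ± 0.112, Mfng 0.0609 ± 0.0495 and Hey1 0.0328 ± 0.0211 CPM per kilobase. The ranges of Jag1 and Hes1, of Hes1 and Notch3, of Notch3 and Jag2, of Jag2 and Notch1, of Lfng and Mfng and of Mfng and Hey1 overlapped, so the order within these pairs was not resolved. With the longest transcript as the length in place of all exons, Hes1 came to 2.4 and Notch1 to 0.895 CPM per kilobase. The exons of Notch1 overlap the antisense genes 0610009E02Rik (7.5% of its exon bases) and Gm13568 (2.91%), and those of Notch3 overlap the antisense gene Gm17276 (6.03%). Those of Notch2 share 5.02% with Gm42820 on the same strand. The strand setting of the counting is not given in the sources used here, so reads in these stretches cannot be assigned with certainty.

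**Figure D1:**
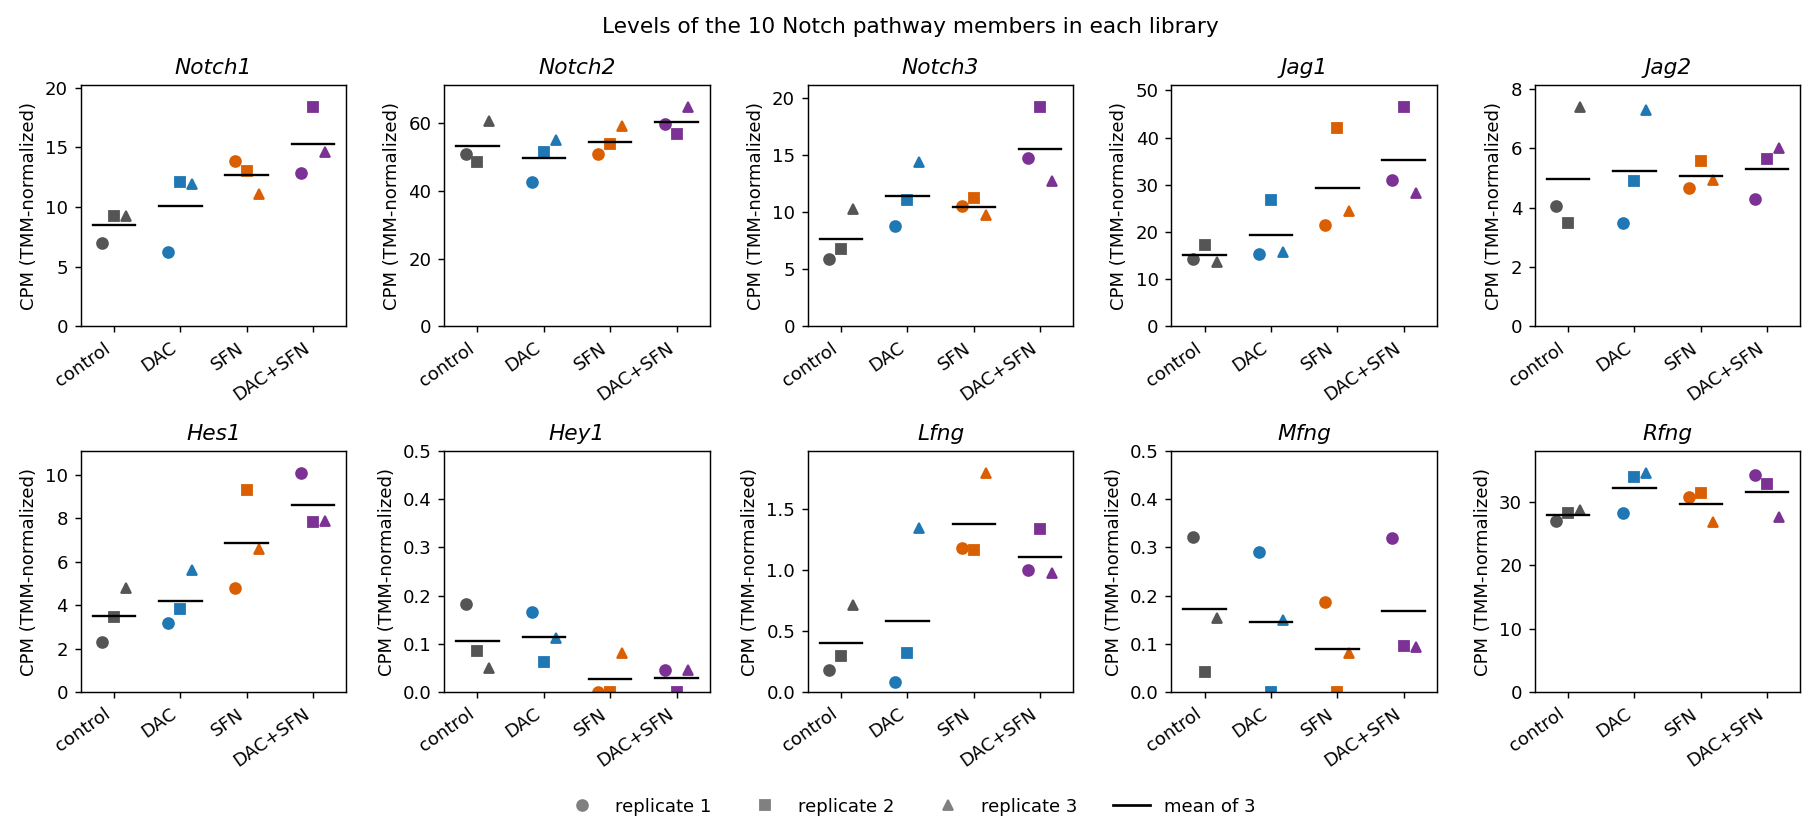
Levels of the 10 genes in each of the 12 libraries, in TMM-scaled CPM on axes that start at 0. Symbols mark replicates 1 to 3 and lines the mean of 3. Jag1 reached 28.3 to 46.5 CPM in the 3 DAC+SFN libraries and 13.7 to 17.3 CPM in the control libraries, while Jag2 overlapped between all groups.

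The receptor Notch1 (chr2:26457903-26516663, minus strand, mm10) rose with SFN and with the combination. Its level was 6.95, 9.29 and 9.24 CPM in control replicates 1, 2 and 3, 6.21, 12.1 and 11.9 CPM with DAC, 13.9, 13 and 11.1 CPM with SFN, and 12.9, 18.4 and 14.6 CPM with DAC+SFN. Every library with SFN lay above every control library, while the DAC libraries fell on both sides of the controls. The change with DAC+SFN was 1.8-fold (log2 fold change 0.85 ± 0.177 SE, adjusted p = 0.00235) and with SFN 1.51-fold (0.59 ± 0.178, adjusted p = 0.0387). With SFN alone, the call held in 1 of 6 fits that each left out a library, the fit without SFN replicate 3, and the adjusted p ranged from 0.03 to 0.227 over those fits. It was lost without control replicate 1, 2 or 3 and without SFN replicate 1 or 2.

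Notch2 (chr3:98013527-98150361, plus strand) was the most abundant of the receptors and moved least. It had 51.0, 48.6 and 60.7 CPM in control, 42.8, 51.6 and 55.0 CPM with DAC, 51.0, 53.8 and 59.2 CPM with SFN, and 59.8, 56.9 and 64.9 CPM with DAC+SFN. Every treated group overlapped control, while the DAC+SFN libraries lay above the DAC libraries. DAC+SFN was 1.14-fold of control, with a 95% interval of 1.02 to 1.26 and an adjusted p of 0.0579, which missed the threshold of 0.05. Compared to DAC alone, Notch2 rose 1.22-fold (log2 fold change 0.29 ± 0.071 SE, adjusted p = 0.0135). That call was lost without DAC replicate 1 (adjusted p = 0.0934) or DAC+SFN replicate 1 (0.0876), and when only the groups compared were fitted (0.0993).

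Notch3 (chr17:32120820-32166852, minus strand) had 5.93, 6.75 and 10.3 CPM in control, 8.78, 11.1 and 14.4 CPM with DAC, 10.5, 11.2 and 9.73 CPM with SFN, and 14.7, 19.2 and 12.7 CPM with DAC+SFN. The 3 DAC+SFN libraries lay above the 3 control libraries, while both single treatments overlapped control. Notch3 rose 2.06-fold with DAC+SFN (log2 fold change 1.04 ± 0.193 SE, adjusted p = 0.00107). With DAC the fold was 1.5 (95% interval 1.12 to 2.01, unadjusted p = 0.00934, adjusted p = 0.293) and with SFN 1.39 (1.04 to 1.85, adjusted p = 0.128). It was higher with DAC in 3 of 3 replicates. The change with DAC passed when only the libraries of these groups were fitted (adjusted p = 0.00365) or without the filter on low counts (0.0422). The change with SFN passed under the same alternatives (0.0497 and 0.0396) and without control replicate 3 (0.0326). Its log2 difference between DAC+SFN and control was 1.3, 1.5 and 0.3 in replicates 1, 2 and 3.

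The make-up of the receptor transcripts also differed between groups. Per length, Notch2 made up 76.4 ± 2.68% of the 3 receptors in control (range 74.5 to 79.5%), 68.9 ± 3.14% with DAC (66.1 to 72.3%), 69.8 ± 3.19% with SFN (67.5 to 73.5%) and 65.3 ± 5.64% with DAC+SFN (59.0 to 69.9%). The ranges of all treated groups lay below that of control. The share of Notch3 was 14.4 ± 2.3% in control. It was 20.8 ± 1.96% with DAC, 17.9 ± 1.56% with SFN and 22.2 ± 4.16% in the combination. Notch1 made up 9.23 ± 1.45%, 10.3 ± 2.14%, 12.3 ± 1.76% and 12.4 ± 1.81% in the same order of groups. These shares are given as a description, with no test, and a rise of any receptor lowers the shares of the others.

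**Figure D2:**
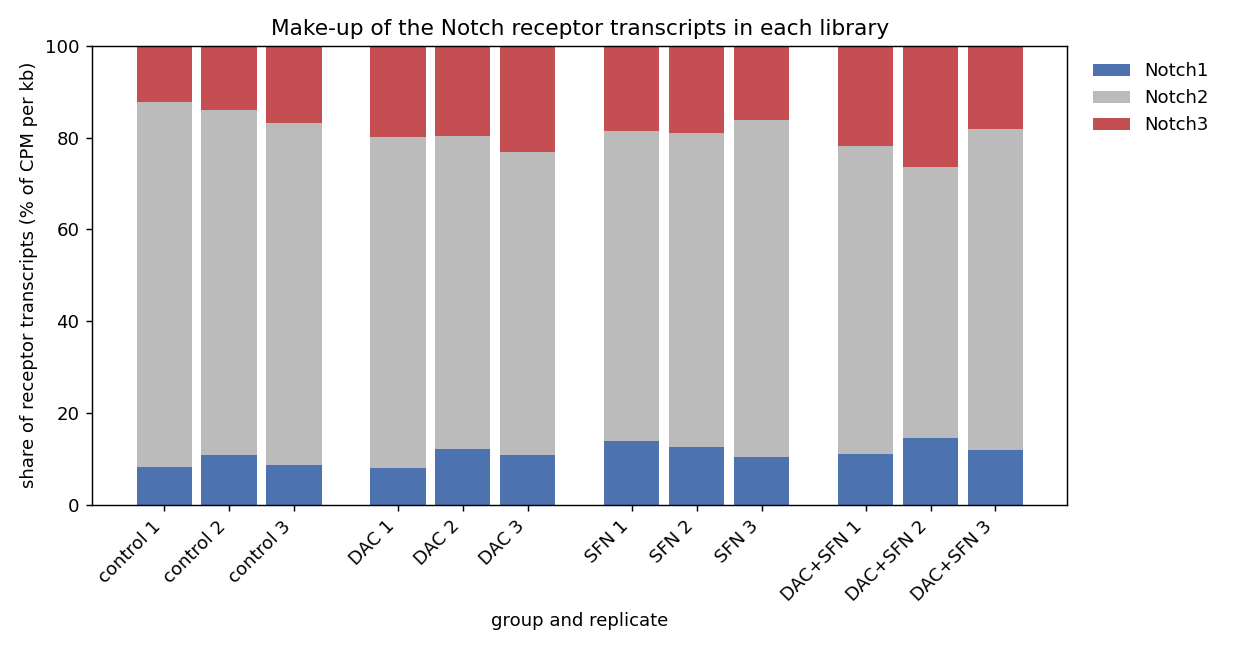
Share of each of the 3 receptors in the receptor transcripts of each library, in percent of the summed CPM per kilobase of exon. Each bar is a library. Notch2 makes up the larger part in all 12 libraries, with a range of 74.5 to 79.5% in control and 59.0 to 69.9% with DAC+SFN.

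The ligand Jag1 (chr2:137081456-137116644, minus strand), a transmembrane ligand that activates Notch on neighboring cells, had the smallest adjusted p of the 8 genes with SFN and with the combination. Its level was 14.2, 17.3 and 13.7 CPM in control, 15.4, 26.7 and 15.7 CPM with DAC, 21.5, 42.1 and 24.5 CPM with SFN, and 31.0, 46.5 and 28.3 CPM with DAC+SFN. Replicate 2 was highest in all 4 groups, and every library with SFN lay above every control library. Jag1 rose 2.31-fold with DAC+SFN (95% interval 1.96 to 2.71, adjusted p = 3.78e-06) and 1.89-fold with SFN (1.61 to 2.22, adjusted p = 8.37e-05). The call in both comparisons held in 6 of 6 fits that left out a library. With DAC the fold was 1.25 (1.06 to 1.47, unadjusted p = 0.013, adjusted p = 0.332).

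Jag2 (chr12:112907819-112929776, minus strand), the other Jagged ligand, had 4.05, 3.48 and 7.4 CPM in control, 3.48, 4.91 and 7.31 CPM with DAC, 4.66, 5.57 and 4.95 CPM with SFN, and 4.28, 5.65 and 6.02 CPM with DAC+SFN. All groups overlapped. DAC+SFN was 1.09-fold of control with an interval of 0.801 to 1.49 (adjusted p = 0.673), so changes of this size in either direction could not be told from the spread. Jag1 made up 78.4 ± 8.6% of the transcripts of both Jagged ligands per length in control and 88.4 ± 3.12% with DAC+SFN, and the ranges overlapped (68.9 to 85.6% and 84.9 to 90.8%).

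The target gene Hes1 (chr16:30064384-30067796, plus strand) encodes a repressor of the basic helix-loop-helix family. It had 2.3, 3.48 and 4.78 CPM in control, 3.19, 3.83 and 5.62 CPM with DAC, 4.8, 9.3 and 6.58 CPM with SFN, and 10.1, 7.85 and 7.89 CPM with DAC+SFN. Every library with SFN lay above every control library, by a narrow margin for SFN replicate 1. Hes1 rose 2.53-fold with DAC+SFN (log2 fold change 1.34 ± 0.253 SE, adjusted p = 0.0012) and 1.98-fold with SFN (0.99 ± 0.255, adjusted p = 0.0183). The call with SFN was lost without control replicate 1 (adjusted p = 0.101), control replicate 2 (0.0933) or SFN replicate 2 (0.152). With DAC the fold was 1.22 (95% interval 0.819 to 1.82, adjusted p = 0.768). Hey1 (chr3:8663359-8667256, minus strand), a related repressor, had 0 to 4 counts in a library and 19 counts in all 12, which is around the floor of 3 counts (0.112 CPM in the deepest library and 0.191 CPM in the shallowest). A change of Hey1 was not detectable at this depth.

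Among the Fringe genes, Lfng rose from a low level. Lfng (chr5:140607320-140615545, plus strand) had 4, 7 and 14 counts in control (0.184, 0.301 and 0.719 CPM), 2, 5 and 36 counts with DAC (0.0828, 0.319 and 1.35 CPM), 25, 31 and 44 counts with SFN (1.18, 1.17 and 1.8 CPM), and 22, 28 and 21 counts with DAC+SFN (1.0, 1.34 and 0.981 CPM). All 6 libraries with SFN lay above the 3 control libraries, while DAC replicate 3 stood apart from the other DAC libraries. The fold was 3.52 with SFN (95% interval 1.66 to 7.48, adjusted p = 0.0277) and 2.91 with DAC+SFN (1.32 to 6.43, adjusted p = 0.0395). Lfng reached 1 CPM in 6 libraries, 5 of them with SFN, so it entered the test through the groups in which it was high. The call with SFN was lost in 6 of 6 fits that left out a library (adjusted p from 0.0502 to 0.113), and the call with DAC+SFN held only without DAC+SFN replicate 3 (0.00438) and otherwise had adjusted p up to 0.162.

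Rfng (chr11:120780746-120784207, minus strand) had 27, 28.3 and 28.8 CPM in control, 28.2, 34.0 and 34.6 CPM with DAC, 30.8, 31.5 and 26.9 CPM with SFN, and 34.3, 32.9 and 27.6 CPM with DAC+SFN. All groups overlapped. DAC+SFN was 1.13-fold of control (95% interval 0.973 to 1.3, adjusted p = 0.202), and the interval ended below 2-fold. Mfng (chr15:78755882-78773475, minus strand) had 0 to 7 counts in a library and 39 in all 12. Mfng did not pass the filter, and counts this low do not settle whether it changed.

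In DAC compared to control, 0 of the 8 genes passed the test (edgeR quasi-likelihood test, adjusted p under 0.05), beside 0.180% of all 11638 genes tested that rose. Notch3 and Jag1 had unadjusted p under 0.05, and DESeq2 also called 0. In SFN compared to control, 4 of 8 rose (Notch1, Jag1, Hes1 and Lfng), beside 8.27% of all genes, and 1 of them, Lfng, rose more than 2-fold, beside 1.08% of all genes. In DAC+SFN compared to control, 5 of 8 rose (Notch1, Notch3, Jag1, Hes1 and Lfng), beside 17.0% of all genes, and 4 of them (all but Notch1) rose more than 2-fold, beside 2.33% of all genes. Lfng entered the test through libraries in which it was high. With a filter of at least 10 counts in every library, which leaves Lfng out, 3 genes rose with SFN, none of them more than 2-fold in the fit above, and 4 rose with DAC+SFN. None of the 8 fell in any of these comparisons. The median log2 fold change of the 8 genes was 0.26 with DAC, 0.53 with SFN and 0.95 with DAC+SFN, while that of all genes tested was 0.005, 0.004 and 0.008. These counts and medians are a description of the genes that passed the filter. These comparisons share the control libraries. Without the replicate number as a block, 0 genes passed in SFN compared to control (adjusted p = 0.157 for Jag1, 0.173 for Hes1, 0.252 for Lfng and 0.28 for Notch1) and 4 in DAC+SFN compared to control (0.0209 for Notch3, 0.023 for Jag1, 0.024 for Hes1 and 0.041 for Notch1), while Lfng was lost (0.19).

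**Figure D3:**
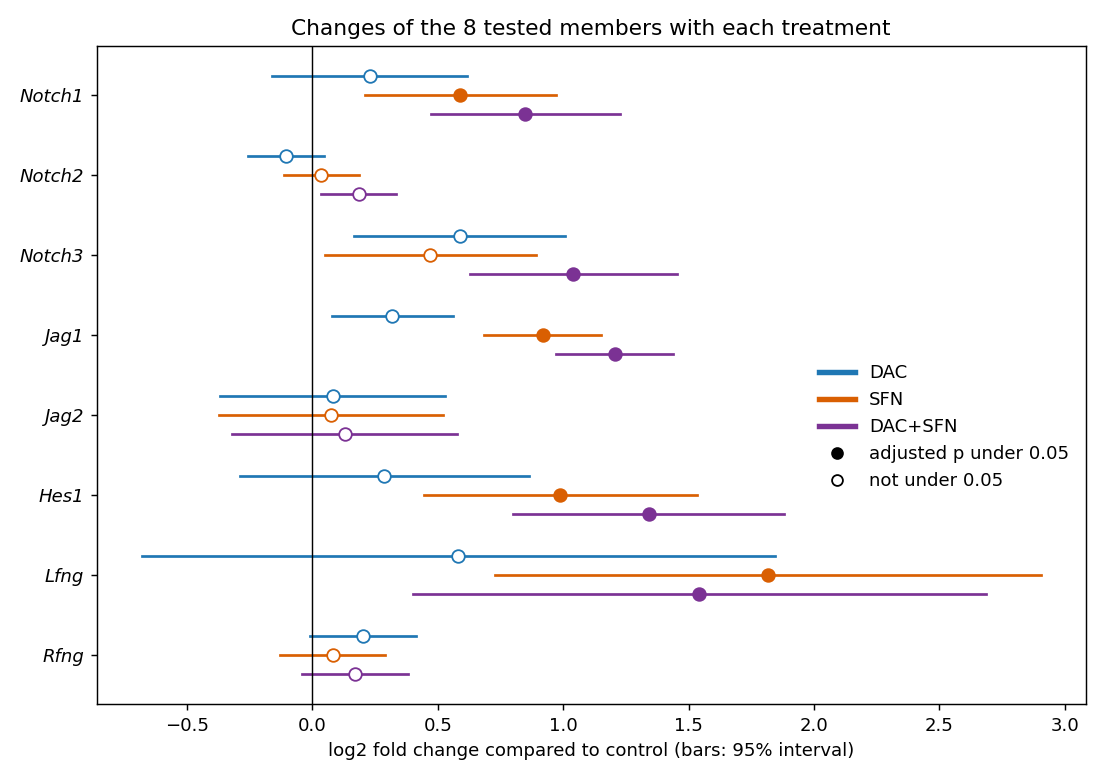
Log2 fold change of the 8 tested genes compared to control for DAC, SFN and DAC+SFN, with 95% intervals as bars, from the edgeR fit of 12 libraries. Filled points had an adjusted p under 0.05: 0 for DAC, 4 for SFN and 5 for DAC+SFN. Jag1 has the narrowest interval among the genes that rose.

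Adding SFN to DAC was addressed by DAC+SFN compared to DAC. In this comparison, 4 of 8 genes rose (Notch1, Notch2, Jag1 and Hes1), beside 9.55% of all genes. Jag1 rose 1.85-fold (95% interval 1.58 to 2.17, adjusted p = 0.000136) and Hes1 rose 2.08-fold (1.44 to 2.99, adjusted p = 0.0108), the latter the 1 gene over 2-fold, beside 0.730% of all genes. Notch1 rose 1.54-fold (1.19 to 1.99, adjusted p = 0.026). Jag1 alone held in every fit that left out a library. Hes1 was lost without DAC replicate 1 (adjusted p = 0.0636), DAC replicate 2 (0.0556) or DAC+SFN replicate 1 (0.0765), and Notch1 without DAC replicate 1 (0.148), DAC replicate 2 (0.0562), DAC+SFN replicate 1 (0.083) or DAC+SFN replicate 2 (0.0985). Without DAC replicate 3 or DAC+SFN replicate 3, Notch3 and Lfng passed as well. Without the block 0 passed.

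Adding DAC to SFN was addressed by DAC+SFN compared to SFN, in which 0 of 8 genes passed, beside 0.937% of all genes that rose. DESeq2 also called 0. Notch3 was 1.48-fold higher (95% interval 1.13 to 1.95, unadjusted p = 0.00786, adjusted p = 0.121) and Jag1 1.22-fold higher (1.05 to 1.42, unadjusted p = 0.0145, adjusted p = 0.16), each in 3 of 3 replicates. These were the 2 genes at unadjusted p under 0.05. Without DAC+SFN replicate 3, Notch3 passed (adjusted p = 0.0113). With only the groups compared in the fit, Notch3 (0.0015) and Jag1 (0.0192) both passed, and without the filter on low counts Notch3 passed (0.0203).

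Whether the combination differed from the sum of the single treatments on the log2 scale was tested by the interaction term. It called 0 of 8 genes and 0% of all genes, with 683 genes at unadjusted p under 0.05, and DESeq2 called 0 of 8. For Jag1 the single changes summed to 1.24 and the combination gave 1.21 on the log2 scale (interaction -0.03, 95% interval -0.36 to 0.29). For Notch3 they summed to 1.06 and gave 1.04 (interaction -0.02, interval -0.59 to 0.56), for Hes1 to 1.28 and 1.34 (0.07, interval -0.70 to 0.83) and for Notch1 to 0.82 and 0.85 (0.03, interval -0.50 to 0.56). Among the 8 genes, Notch2 alone had an unadjusted p under 0.05 in the edgeR fit (interaction 0.25, interval 0.04 to 0.47, adjusted p = 0.847). For Lfng the singles summed to 2.40 and the combination gave 1.54 (interaction -0.86, interval -2.41 to 0.69, adjusted p = 0.97). For Hes1, Notch1, Notch3 and Lfng, departures of 0.5 from the sum in either direction lay within the interval.

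**Figure D4:**
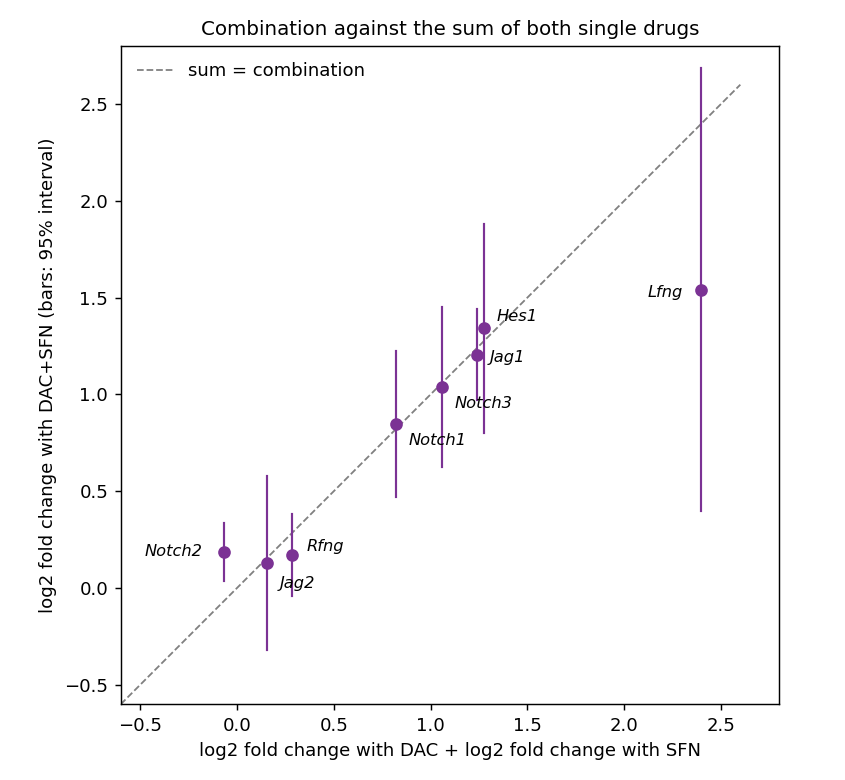
Log2 fold change of the combination compared to control (y axis, bars are 95% intervals) against the sum of the log2 fold changes of both single treatments (x axis) for the 8 tested genes. On the dashed line the combination equals the sum. Jag1, Notch3, Hes1 and Notch1 lie within 0.07 of the line, and Lfng lies below it at 2.40 and 1.54.

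The 5 genes that passed with DAC+SFN were higher in all 3 replicates, and in each of them the log2 difference was smallest in replicate 3. It was 0.66 for Notch1, 0.3 for Notch3, 1.04 for Jag1, 0.71 for Hes1 and 0.4 for Lfng in replicate 3, and between 0.88 and 2.09 in replicates 1 and 2. With SFN, 3 of the 4 genes called were smallest in replicate 3, and in DAC+SFN compared to DAC 2 of 4. Over all genes, the 3683 calls with DAC+SFN became 4199 without DAC+SFN replicate 3. They became 2388 without DAC+SFN replicate 1 and 2836 without DAC+SFN replicate 2. The pattern was thus not shown to be particular to the Notch genes. Replicate 3 also had the highest fibroblast marker sum in every group (250 to 366 CPM). Cd68 rose with the treatments in which these genes rose, with a log2 fold change of 1.11 for SFN (adjusted p = 0.000729) and 1.55 for DAC+SFN (adjusted p = 1.98e-05), and the sum of the 3 leukocyte markers went from 2.36 to 4.78 CPM in control to 3.93 to 5.68 CPM with DAC, 6.16 to 8.99 CPM with SFN and 8.31 to 11.2 CPM with DAC+SFN. Ptprc and Cd3e, the defining markers of that list, stayed at 0 to 2 counts. Of the fibroblast list, Pdgfra fell by 0.84 on the log2 scale with SFN (adjusted p = 0.024) and by 0.73 with DAC+SFN (adjusted p = 0.0249). Col1a1, most of that list, had log2 fold changes of -0.20 (adjusted p = 0.417) and 0.16 (0.446), and Col1a2 of -0.77 (0.0525) and -0.14 (0.689), while Dcn was not tested. Of the 7 melanocytic markers, Pmel fell by 0.36 (adjusted p = 0.0129) and Tyrp1 fell by 0.17 (0.0478) with DAC+SFN, the other 5 did not pass (adjusted p from 0.0837 to 0.993), and with SFN none of the 7 passed. The part of these markers in the changes of the Notch genes was not tested.

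Other genes of the pathway were examined in lists of receptors and ligands, receptor cleavage, O-glycosylation, ligand endocytosis, receptor turnover, nuclear factors and targets, 53 genes of which 39 were tested. The other receptors and ligands did not pass the filter. Notch4 had at most 17 counts in a library, Dll1 10, Dll3 4, Dll4 7, Dlk1 2 and Dlk2 18. Of the other targets only Hes6 was tested (log2 fold change 0.08 with DAC+SFN, adjusted p = 0.543), and Hes5 and Heyl had 0 counts. With DAC, 0 of 39 genes passed (3 at unadjusted p under 0.05). With SFN, 1 rose and 3 fell, beside 8.27% and 5.65% of all genes. These 4 calls fell to 0 without the block and to 2 without SFN replicate 3. A rise was called without control replicate 3 and in none of the other fits that left out a library. With DAC+SFN, 12 rose and 6 fell, beside 17.0% and 14.7%, with a median log2 fold change of 0.04 for the 39 genes and 0.008 for all genes. In DAC+SFN compared to DAC, 9 rose and 2 fell, beside 9.55% and 6.60%. Without the block, 2 rose and 0 fell with DAC+SFN, and fits that left out a library called 8 to 15 of the 39. With only the groups compared in the fit, 7 were called. The 11 calls in DAC+SFN compared to DAC fell to 0 without the block, to 1 with only the groups compared, and to 3 without DAC replicate 1, 5 without DAC replicate 2 and 2 without DAC+SFN replicate 1.

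With DAC+SFN, 17.0% of all genes tested rose and 14.7% fell. The counts by list below are a description beside these shares, and no list was tested as a set. Receptor cleavage genes had 2 up and 3 down of 10. Furin, the protease that cuts the Notch precursor, rose 1.46-fold (log2 fold change 0.55 ± 0.105 SE, adjusted p = 0.00133), and Psen2, a catalytic subunit of γ-secretase, fell by 0.64 on the log2 scale (SE 0.077, adjusted p = 4.12e-05). Aph1c, another γ-secretase subunit, fell by 0.34 (adjusted p = 0.000993), but it has a near-identical paralog, Aph1b. With only uniquely mapped reads counted, reads that match both genes were left out, so its level is uncertain. Psen2 and Aph1c were lower in 3 of 3 replicates. Of 5 ligand endocytosis genes, 2 rose and 1 fell. Neurl1a, a ubiquitin ligase for Notch ligands, rose 1.94-fold from 0.791 ± 0.289 to 1.51 ± 0.256 CPM (adjusted p = 0.0227) and Mib1, another such ligase, rose 1.2-fold (adjusted p = 0.00704). Of 12 nuclear genes, 5 rose and 1 fell. They included the corepressor Spen (1.28-fold, adjusted p = 0.0453) and the coactivator Maml2 (1.32-fold, adjusted p = 0.0166). Furin, like the genes above, differed least in replicate 3 (log2 difference 0.17), and Spen was higher in 2 of 3 replicates. Receptor turnover genes had 2 up and 0 down of 8, and O-glycosylation genes 1 up and 1 down of 3. Psen2, Aph1c, Mib1, Neurl1a, Maml2 and Spen did not pass without the block (adjusted p from 0.05 to 0.388), while Furin did. When a library was left out, Neurl1a was lost in 4 of 6 fits, Maml2 in 4, Spen in 3 and Mib1 in 2. Spen (adjusted p = 0.145) and Neurl1a (0.0559) did not pass with DESeq2, nor did Neurl1a (0.0556) and Maml2 (0.0559) with only the groups compared in the fit.

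**Figure D5:**
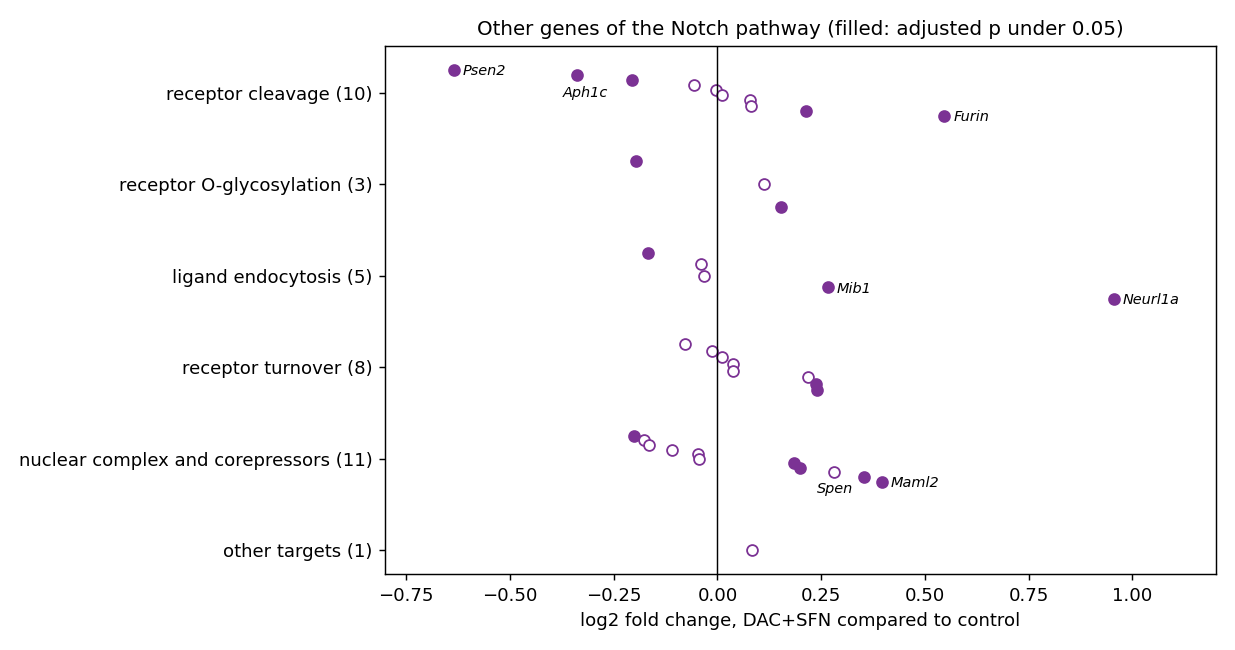
Log2 fold change in DAC+SFN compared to control for 38 other genes of the Notch pathway, by list, with the number drawn in brackets. Filled points had an adjusted p under 0.05 (11 up and 6 down). Among the genes drawn, Neurl1a and Furin lie farthest to the right and Psen2 farthest to the left.

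The genes most alike to Jag1 and Notch3 over the 12 libraries were found by the Pearson correlation of log2 CPM after the replicate means were removed. For Jag1 they were Gm10825 (r = 0.994), Vcl, which encodes the focal adhesion protein vinculin (0.991), and Slc10a3 (0.987). For Notch3 they were Bcl2l2, which encodes an anti-apoptotic protein (0.976), Csnk1d, which encodes casein kinase 1 delta (0.976), and Zfp385a (0.973). The libraries share 3 replicates and 4 treatments, and with 11638 genes searched the values are given as a description, with no test. Gm10825 went from 21.5 ± 1.89 CPM in control to 53.0 ± 8.67 CPM with DAC+SFN, and Zfp385a from 32.2 ± 6.04 to 59.4 ± 17.0 CPM.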

How the data were processed

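RNA was measured by stranded mRNA-seq with single 75-base reads in 12 libraries of B16F10 cells. The values are whole-number counts of reads per gene, deposited per library. The authors checked reads with FastQC 0.11.7, used Trimmomatic 0.38 for trimming and TopHat 2.1.1 for alignment (mm10), and counted uniquely mapped reads with HTSeq. The annotation and strand setting of the counting are not given in the sources used here. Groups came from the sample labels. Counts were scaled by TMM, and the 11638 of 24421 genes that reached 1 CPM in 3 or more libraries were tested with the edgeR 4.0.16 quasi-likelihood test (R 4.3.3, legacy fit, two-sided) in 1 model of all 12 libraries with the replicate number as a block. The p-values were adjusted over all genes tested (Benjamini-Hochberg), and genes with an adjusted p under 0.05 were called. The study's methods correct for a batch that they do not define. Libraries with the same replicate number deviated together from their group means (18 pairs, mean r = 0.544, lowest 0.27), so the numbers were taken to pair the samples. The mean r was -0.267 for 36 pairs with different numbers. Deviations from a group mean cancel within the group, so this value largely follows from the former and is not separate evidence. Library numbers in the labels follow the replicate number, so the 2 cannot be told apart. Per-replicate log2 differences used a prior count of 2. No pair of replicates was a copy (chi-square per gene 13.6 to 37.5 over 12 pairs). Exon lengths and positions came from GENCODE M21, and promoters from RefSeq. Floors of 3 counts and intervals cover counting error or library spread only.

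The genes and pathway lists were chosen with earlier results of these data known. The named pathway genes were the at most 8 called with DAC+SFN that changed most, with every listed receptor and ligand, and the 3 genes most alike to each of the 2 members with the smallest adjusted p. Of the 8, 1 is not reported here by name or in the plot of pathway genes, but it is in the counts. Genes mentioned beyond these are markers or overlapping genes. Alternatives were DESeq2 1.42.0, no TMM, other count filters, no block, the version 4 fit, a fit of only the groups compared, leaving out each library, a prior count of 2 and the longest transcript as length. The fit was tested on simulated data with known changes for DAC+SFN compared to control, where 189 of 200 were recovered with 10 false calls. That simulation does not vouch for the call of any gene reported here.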

Additional observations from a re-analysis of the deposited data

How the results depend on the processing

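The count of 5 Notch genes called in DAC+SFN compared to control ranged from 4 to 6 over all alternatives tried, and Notch1, Notch3, Jag1 and Hes1 passed in each of them, except that Notch1 missed the added 2-fold threshold. In the other comparisons the counts moved, and the cause was not tested. For DAC compared to control, 1 gene passed without the filter on low counts and 1 when only the groups compared were fitted, in place of 0. For SFN compared to control, 0 passed without the replicate block, 1 with the added 2-fold threshold, 3 with at least 10 counts in every library, 5 without the filter, 5 with only the groups compared, and 1 to 3 when a library was left out, in place of 4. For DAC+SFN compared to DAC, 0 passed without the replicate block, 1 with the 2-fold threshold, 3 with only the groups compared, 5 without the filter, and 1 to 6 when a library was left out, in place of 4. For DAC+SFN compared to SFN, 1 passed without the filter, 2 with only the groups compared, and 0 to 1 when a library was left out, in place of 0. The block left the counts for DAC, DAC+SFN compared to SFN and the interaction at 0.

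In the comparisons between groups and the interactions of Notch2 and Lfng, signs turned only when a library was left out, and only for changes that had not passed. The other interactions were not recomputed gene by gene. The log2 fold change of Jag2 ranged from -0.14 to 0.32 for DAC, -0.17 to 0.33 for SFN, -0.11 to 0.35 for DAC+SFN compared to control, -0.091 to 0.215 compared to DAC and -0.19 to 0.20 compared to SFN. That of Lfng ranged from -0.90 to 1.02 for DAC, -0.60 to 0.30 for DAC+SFN compared to SFN and -1.30 to 0.61 for the interaction. That of Notch2 ranged from -0.019 to 0.060 for SFN, that of Rfng from -0.147 to 0.076 compared to DAC and from -0.005 to 0.177 compared to SFN, and that of Hes1 from -0.014 to 0.669 compared to SFN.

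Over all genes, the calls for DAC went from 21 to 83 with DESeq2, 45 without TMM, 169 without the filter, 33 with the version 4 fit, 663 with only the groups compared and 0 without the block. Without the block they went from 1619 to 23 for SFN, from 3683 to 1201 for DAC+SFN and from 1879 to 20 for DAC+SFN compared to DAC, the last also to 748 with only the groups compared. For DAC+SFN compared to SFN they went from 187 to 410 with DESeq2, 486 without the filter, 1267 with only the groups compared and 0 without the block. With a library left out, the calls ranged from 0 to 23 for DAC, 726 to 1463 for SFN, 2333 to 4199 for DAC+SFN, 769 to 2377 for DAC+SFN compared to DAC and 0 to 703 for DAC+SFN compared to SFN. Depth limits Hey1, Mfng and Lfng, whose highest counts in a library were 4, 7 and 44.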
